A study of Mus musculus with 4 samples.

Results

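The cells described here are the secretory cells of mouse tracheas that had been injured and then given transplanted basal cells, chosen by their own RNA. A cell entered the set when it had at least 500 detected genes, when Scgb1a1, Scgb3a1, Scgb3a2 and Bpifa1 together gave at least 500 of every 10,000 of its unique molecular identifiers (UMIs, the counted RNA molecules), and when it was poor in ciliated-cell and hillock-cell RNA. The last condition meant under 20 UMIs per 10,000 for the sum of Foxj1, Ccdc153, Dynlrb2 and Fam183b, and under 10 per 10,000 for Krt13. Of 6778 cells with at least 500 genes, 2160 met the rule.

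Single-cell RNA libraries were made from the tracheas of 2 recipient mice. Each recipient received 2% polidocanol, a detergent that strips the tracheal lining, into the trachea, and 6000000 basal cells were placed there 5 hours later. Live cells, positive for the viability dye Calcein Blue, were later sorted into GFP-positive cells, which descend from the transplant, and GFP-negative cells of the host, with 1 library for each. One recipient, labelled 129 X1/S1, had been given iBCs, which are basal cells made in culture from mouse embryonic stem cells, and was examined at 192 days. The other, labelled C57BL/6, had been given primary basal cells (primary BCs), and was examined at 69 days. Both recipients are described as wild type, and the strain from which the primary donor cells came is not given in the sources used here. The 4 groups are called iBC-donor, iBC-host, primary-donor and primary-host cells below, where donor stands for the GFP-positive and host for the GFP-negative sort of a trachea. Each group is 1 library, so no test between groups can be made and no p-value is given. Between the recipients the kind of donor cell, the time, the strain and the animal differ together and cannot be told apart.

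Secretory cells, often called club cells in mice, release secretoglobins, mucins and antimicrobial proteins into the airway surface liquid and carry enzymes that break down inhaled chemicals. Basal cells give rise to them, with Notch signalling favouring the secretory over the ciliated fate. When secretory cells make more mucin they are called goblet cells, and the gel-forming mucins Muc5b and Muc5ac, the protein-folding enzyme Agr2 and the transcription factors Spdef and Foxa3 are the usual marks of that state.

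The set held 518 of 1596 iBC-donor cells (32.5%, 95% exact binomial interval 30.2 to 34.8%) and 618 of 1890 iBC-host cells (32.7%, 30.6 to 34.9%). It held 569 of 1874 primary-donor cells (30.4%, 28.3 to 32.5%) and 455 of 1418 primary-host cells (32.1%, 29.7 to 34.6%). The 4 intervals, which cover counting error only, all overlapped. With a sum of at least 1000 required, the shares were 27.6, 29.4, 19.9 and 23% in the same order, so their likeness rests on the limit. The summed level of the 4 rule genes had a median of 2397 UMIs per 10,000 in iBC-donor, 3693 in iBC-host, 1323 in primary-donor and 1633 in primary-host cells. Few cells lay very close to the limit: 8, 12, 24 and 12 cells in the same order had a sum between 500 and 550, and 4, 10, 29 and 23 cells were left out with a sum between 450 and 500. In the wider range of 250 to 500, 29, 64, 163 and 104 cells were left out, most of them in the primary BC recipient. The ciliated-cell genes removed 13, 8, 7 and 6 cells that passed the sum, and Krt13 removed 1 cell, in the primary-host library.

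The libraries held 21504563 to 26625123 UMIs each, and the chosen cells had a median of 16114 to 20617 UMIs. A doublet caller, Scrublet, marked 9, 37, 5 and 9 of the chosen cells in the order used above, and these were kept. GFP messenger RNA was found in 265 of 518 iBC-donor cells (51.2%) and in none of 618 iBC-host cells, and in 555 of 569 primary-donor cells (97.5%) and 17 of 455 primary-host cells (3.74%). The iBC-donor library shared 1 cell barcode with each of the primary-donor and primary-host libraries, and no other pair of libraries shared any. Immune-cell markers summed to at most 7.39 CPM (UMIs per 1000000) in the chosen cells of any library, with Ptprc, Fcer1g, Coro1a and Laptm5 at 0 in the iBC-donor cells.

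The 4 genes of the rule were used in very unequal proportions. Because they chose the cells, their levels are a description. In iBC-donor cells Scgb1a1, the major club-cell secretoglobin, gave more UMIs than the other rule genes in 517 of 518 cells (99.8%). In iBC-host cells Scgb1a1 led in 79.3% of cells, Bpifa1 in 10.0%, Scgb3a1 in 7.93% and Scgb3a2 in 2.75%. Bpifa1, a secreted protein of the airway surface liquid, led in 87.9% of primary-donor and 75.2% of primary-host cells, and Scgb1a1 in 10.7% and 18.7%. Cells of the iBC-treated trachea were therefore mostly Scgb1a1-led and those of the other trachea mostly Bpifa1-led, whichever their origin.

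The promoters of Bpifa1, Reg3g and Scgb3a1 are shown because their levels differ widely between the libraries, and that of Cyp2f2 because it was detected in every chosen cell. They are the RefSeq promoter windows on GRCm38.p6, from 250 bases to 1 base before the annotated start, in the gene's own direction. Capitals mark matches, on either strand, to forkhead-type letters (TNTTTAC or TGTTTGC) or NKX2-type letters (CACTTNA or CTCAAG), which are the motif families of Foxa and Nkx2-1 factors in airway epithelium.
Bpifa1, chr2:154142630-154142879, plus strand: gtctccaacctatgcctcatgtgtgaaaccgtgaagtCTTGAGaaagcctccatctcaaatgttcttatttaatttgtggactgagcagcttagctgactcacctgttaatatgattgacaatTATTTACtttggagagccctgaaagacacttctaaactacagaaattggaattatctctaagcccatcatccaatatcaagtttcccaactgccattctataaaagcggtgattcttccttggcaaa
Reg3g, chr6:78468875-78469124, minus strand: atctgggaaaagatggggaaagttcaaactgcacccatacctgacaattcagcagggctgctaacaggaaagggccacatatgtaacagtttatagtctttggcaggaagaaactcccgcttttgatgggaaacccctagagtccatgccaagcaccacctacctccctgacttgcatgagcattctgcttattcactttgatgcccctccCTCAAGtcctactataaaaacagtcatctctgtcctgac
Scgb3a1, chr11:49663345-49663594, plus strand: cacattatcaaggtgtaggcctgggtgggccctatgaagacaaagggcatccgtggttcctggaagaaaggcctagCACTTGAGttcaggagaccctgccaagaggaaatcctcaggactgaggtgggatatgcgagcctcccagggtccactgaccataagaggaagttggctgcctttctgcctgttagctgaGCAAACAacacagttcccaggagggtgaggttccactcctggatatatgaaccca
Cyp2f2, chr7:27119705-27119954, plus strand: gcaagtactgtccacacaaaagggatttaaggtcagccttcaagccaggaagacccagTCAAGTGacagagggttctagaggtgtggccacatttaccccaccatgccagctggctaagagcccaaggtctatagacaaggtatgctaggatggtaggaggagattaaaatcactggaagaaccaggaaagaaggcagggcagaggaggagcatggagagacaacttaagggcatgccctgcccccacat
Bpifa1 had 1 forkhead-type match 127 bases and 1 NKX2-type match 213 bases before the start. Scgb3a1 had 1 forkhead-type match at 55 bases and 2 overlapping NKX2-type matches at 174 and 172 bases. Reg3g and Cyp2f2 each had 1 NKX2-type match, at 39 and 192 bases. Of all 32851 promoter windows of this length, 14.6% held a forkhead-type match and 21.3% an NKX2-type match, and a match is a run of letters, not a measured binding site.

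Across cells the same 4 genes had unlike spreads. Scgb1a1 had a median of 2227 UMIs per 10,000 in iBC-donor and 2040 in iBC-host cells, against 10.1 in primary-donor and 61.6 in primary-host cells. Scgb3a1, a secretoglobin enriched in the upper airway, had medians of 7.12, 685.5, 4.94 and 124 per 10,000 in the same order, so donor cells were the lower in both tracheas. Scgb3a2 had medians of 66.3, 335, 150.5 and 138 per 10,000 in that order, so it was at its lowest in iBC-donor cells.

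Bpifa1 was close to absent from iBC-donor cells. It was detected in 13 of 518 of them (2.51%), against 97.3% of iBC-host cells, and in every chosen primary-donor and primary-host cell. In ciliated cells of the same libraries, which should lack it, a Bpifa1 UMI was present in 1.20% of the iBC-donor and 57.0% of the iBC-host library (median depths 11660 and 12114 UMIs), and in 96.9% of the primary-donor and 98.5% of the primary-host library (17253 and 18986 UMIs). The 2.51% in iBC-donor cells therefore lay near that background as a share, although Bpifa1 led the rule genes in 1 of the 518 cells. Bpifa1 medians in the chosen cells were 0, 133, 928 and 871 per 10,000, against 0, 0.674, 2.00 and 3.13 per 10,000 in ciliated cells, so the high levels of the last 3 libraries were not of the size of the background.

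The rule did not use Muc5b or Cyp2f2. Cyp2f2, the P450 enzyme for which mouse club cells are known, was detected in every chosen cell, with medians of 71.7, 55.5, 88.2 and 73.6 UMIs per 10,000. In ciliated cells its medians were 15.96, 45.2, 34.1 and 29.9 per 10,000, and it had a UMI in 98.4 to 99.7% of them, so only its level differed, and by little in the iBC-host library. Muc5b had medians of 6.87, 10.3, 0 and 10.3 per 10,000 and was undetected in 15.6, 16.2, 52.2 and 29.0% of the chosen cells. The primary-donor library thus had the most Muc5b-free cells.

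**Figure D1:**
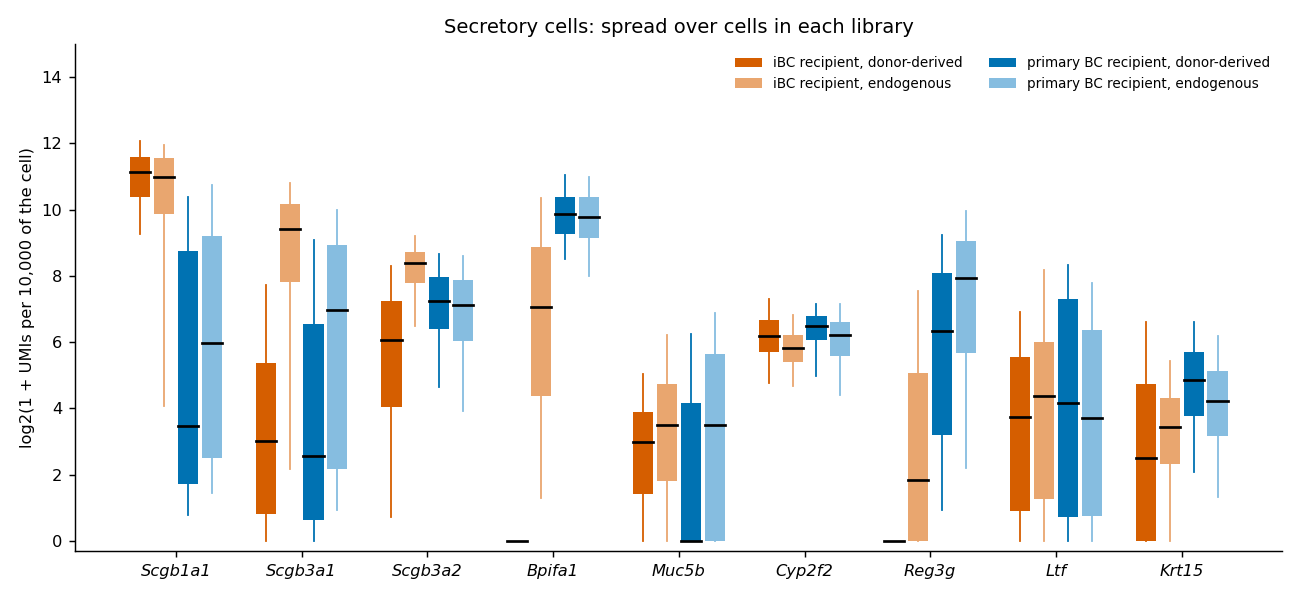
Levels per cell of the 4 rule genes and 5 others in the 4 libraries, as log2(1 + UMIs per 10,000 of the cell). Boxes span the 25th to 75th percentile, whiskers the 5th to 95th, and the black line is the median over 518, 618, 569 and 455 cells; Bpifa1 and Reg3g sit at 0 in iBC-donor cells, and Scgb1a1 spreads widely in primary-donor and primary-host cells.

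The name secretory held only in part for the trachea given primary BCs, where most of the chosen cells were rich in Bpifa1 and poor in Scgb1a1, and part of them carried basal-cell RNA. A Krt5 UMI was found in 44.5% of primary-donor and 32.3% of primary-host cells, against 12.9% of iBC-donor and 13.1% of iBC-host cells. The cells were divided at 100 Scgb1a1 UMIs per 10,000, a limit chosen after the values were seen, and the 2 sides are ranges, not cell types. The Scgb1a1-high range held 517 of 518 iBC-donor cells (99.8%) and 560 of 618 iBC-host cells (90.6%, 88.0 to 92.8%). It held 222 of 569 primary-donor cells (39.0%, 34.99 to 43.2%) and 216 of 455 primary-host cells (47.5%, 42.8 to 52.2%). Between 50 and 100 per 10,000 lay 0, 9, 14 and 18 cells, and between 100 and 200 lay 0, 15, 33 and 32 cells, so the division cut through few cells.

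In primary-donor cells Krt5, the keratin of basal cells, had a UMI in 10.4% of Scgb1a1-high and 66.3% of Scgb1a1-low cells, with medians of 0 and 2.92 per 10,000. Ciliated cells of that library had a Krt5 UMI in 8.75%. Dapl1, a marker of basal cells leaving the basal state, had medians of 0 and 4.41 per 10,000 in Scgb1a1-high and Scgb1a1-low cells, and the water and glycerol channel Aqp3 had 0 and 7.86. Trp63, the master transcription factor of basal cells, had a UMI in 5.86% and 41.8%. All 4 genes were thus higher in the Scgb1a1-low range, while the median depth was 24228 UMIs in Scgb1a1-high and 14330 in Scgb1a1-low cells, so the deeper cells showed less of them.

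The primary-host cells divided in the same manner. Krt5 had a UMI in 12.96% of Scgb1a1-high and 49.8% of Scgb1a1-low cells, against 7.5% of ciliated cells. Trp63 had one in 6.02% and 40.2%. Dapl1 had medians of 0 and 3.01 per 10,000, and Aqp3 of 0 and 5.93. In both libraries the Krt5 share of the Scgb1a1-low cells stood well above that of ciliated cells. Median depths were 27260 UMIs in Scgb1a1-high and 17143 in Scgb1a1-low cells.

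Several secreted products differed between the same ranges, with values as CPM of the UMIs outside the 4 rule genes. In primary-donor cells Bpifb1, a secreted relative of Bpifa1, had 2131 CPM in Scgb1a1-high and 188 CPM in Scgb1a1-low cells, lactotransferrin (Ltf) had 22278 and 3674 CPM, lysozyme Lyz2 had 13771 and 4551 CPM, and Agr2 had 2471 and 680 CPM. In primary-host cells Bpifb1 had 5423 CPM in Scgb1a1-high and 602 CPM in Scgb1a1-low cells, Ltf 10179 and 4722, Lyz2 19446 and 9199, and Agr2 4042 and 1196. Every one of these was higher in the Scgb1a1-high range of both libraries. Cyp2f2 was not: it had 10837 and 10787 CPM in Scgb1a1-high and Scgb1a1-low primary-donor cells, and 8091 and 10243 CPM in the primary-host ones. The Scgb1a1-low cells were therefore as rich in this club-cell enzyme as the others. In iBC-host cells Ltf went the other way, with 7691 CPM in Scgb1a1-high and 31512 CPM in Scgb1a1-low cells. There Bpifb1 (4296 and 31.5 CPM), Lyz2 (10906 and 8799 CPM) and Agr2 (1085 and 707 CPM) were higher in the Scgb1a1-high range.

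**Figure D2:**
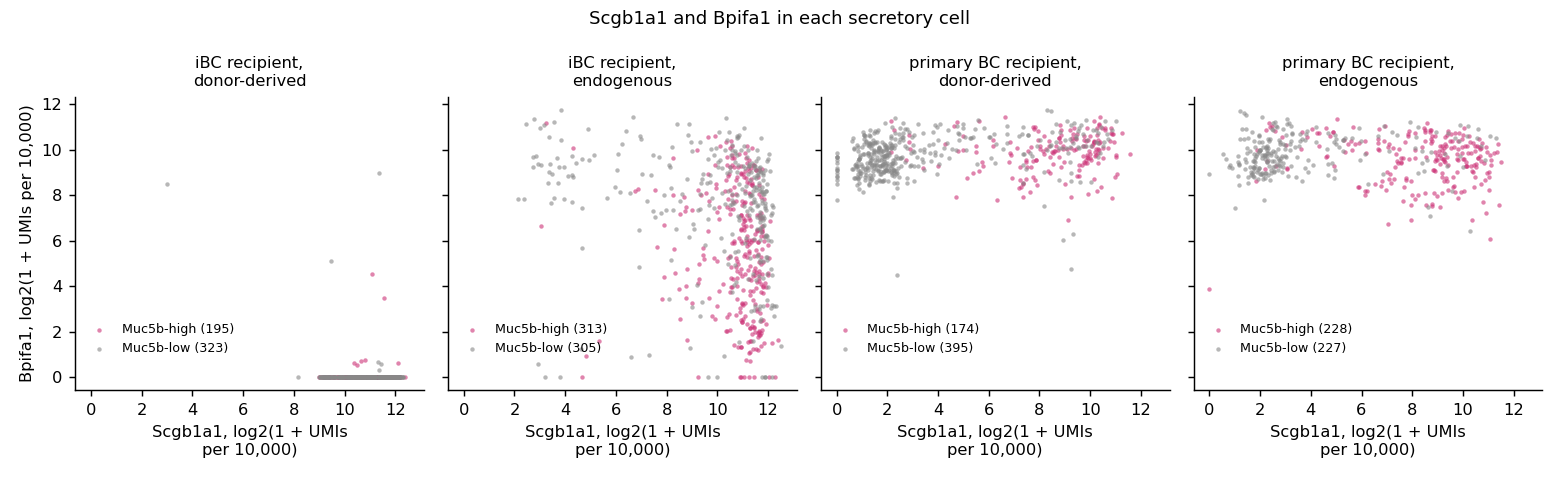
Each chosen cell by its Scgb1a1 (horizontal) and Bpifa1 (vertical) level, as log2(1 + UMIs per 10,000), in the 4 libraries, with Muc5b-high cells (at least 10 per 10,000) in pink and Muc5b-low cells in grey. The iBC-donor cells (donor-derived, iBC recipient) lie along the bottom right, and the cells of both libraries of the primary BC recipient lie along the top and spread from low to high Scgb1a1, with most of the pink points at high Scgb1a1.

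The iBC-donor cells were then set against the iBC-host cells, which asks how far secretory cells made from iBCs resemble those of the trachea around them. UMIs were summed over the cells and given as CPM of the UMIs outside the 4 rule genes, since these genes took 26.4% of UMIs in iBC-donor and 38.1% in iBC-host cells, and 19.2% in primary-donor and 21.0% in primary-host cells. A gene is called past the fold when its ratio was at least 2 and the nearer end of its exact 95% interval, which covers counting error only, was at least 1.5. Genes count as measured from 20 CPM in 1 of the sums upward. Of 6563 genes measured, 324 were higher past the fold in iBC-donor cells (4.94%) and 327 lower (4.98%), 9.92% in either direction, with a median log2 ratio over all genes of 0.10. Under CPM of all UMIs the median was 0.33 and the split was 430 higher and 175 lower, so the balance of the counts rests on the scaling.

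Among the 10 genes furthest below in iBC-donor cells were the secreted products Reg3g, Tff2 and Dmbt1. Reg3g (chromosome 6, 78466269 to 78468872, minus strand, in the GENCODE vM21 annotation of GRCm38), a secreted lectin that kills Gram-positive bacteria, had 20.5 CPM in iBC-donor and 5857 CPM in iBC-host cells, and 27909 CPM in primary-donor and 51435 CPM in primary-host cells. It was 286-fold lower (241 to 341) in iBC-donor cells, and its UMIs came from 2.32% of them, against 73.8% of iBC-host cells. Ciliated cells of the 2 libraries held a Reg3g UMI in 1.59% and 86.9%, so the shares of both kinds of cell moved together between the libraries.

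Tff2 (chromosome 17), a trefoil peptide released with mucus, had 8.51 CPM in iBC-donor and 2909 CPM in iBC-host cells, and 230 and 1338 CPM in primary-donor and primary-host cells. It was 342-fold lower (263 to 453) in iBC-donor cells. Dmbt1 (chromosome 7), a secreted scavenger glycoprotein that binds bacteria, had 34.8 and 2762 CPM in iBC-donor and iBC-host cells, a 79.4-fold lower level (69.7 to 90.9), and 406.5 and 887 CPM in primary-donor and primary-host cells. For both genes iBC-donor cells were the lowest of the 4 libraries and iBC-host cells the highest.

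The other 7 of these 10 genes held enzymes and transporters. The sulfotransferase Sult1d1 had 19.6 and 868.5 CPM in iBC-donor and iBC-host cells, and 1705 and 1467 CPM in primary-donor and primary-host cells. The fatty acid hydroxylase Cyp4a12b had 0.608 and 181 CPM in the iBC pair, from 4 UMIs in iBC-donor cells, and 230 and 231 CPM in the primary pair, donor first. The peptide transporter Slc15a2 had 11.2 and 388.5 CPM, and 356 and 338.5 CPM, in iBC-donor, iBC-host, primary-donor and primary-host cells. In each case iBC-donor cells stood apart below the other 3 libraries. The fatty acid receptor Cd36 had 6.08, 342.5, 87.7 and 167 CPM in the same 4 libraries and was also lowest in iBC-donor cells. The monocarboxylate transporter Slc16a11, the matrix protein Chad (3 UMIs in iBC-donor cells, a ratio 691-fold lower with an interval of 236 to 3354) and the surface protein Ly6k complete the 10 named genes. Sult1, Cyp4a and Ly6 genes have near-identical relatives that can share reads, so their levels are uncertain.

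Among the 10 genes furthest above were Cryab, Clu and Fabp5. Cryab (chromosome 9), a small heat-shock protein, had 356 CPM in iBC-donor and 3.05 CPM in iBC-host cells, 117-fold higher (74.6 to 194), and 2.58 and 3.15 CPM in primary-donor and primary-host cells. It had a UMI in 85.1% of iBC-donor and 2.91% of iBC-host cells, against 12.7% and 1.48% of the ciliated cells of those libraries. Clu, a secreted chaperone, had 3066 and 94.1 CPM in iBC-donor and iBC-host cells, 32.6-fold higher (30.0 to 35.4), and 45.9 and 47.3 CPM in primary-donor and primary-host cells. The fatty acid carrier Fabp5 had 634, 10.9, 7.38 and 17.6 CPM in the same 4 libraries. All 3 genes were at their highest in iBC-donor cells.

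Cdkn2a, which encodes 2 inhibitors of the cell cycle, had 132 CPM in iBC-donor and 0.642 CPM in iBC-host cells, and 36.2 and 1.21 CPM in primary-donor and primary-host cells. Both donor libraries were thus above their hosts; the primary pair was picked out after its values were seen. Psca, a membrane-anchored surface protein, had 1049 and 66.2 CPM in iBC-donor and iBC-host cells, and 0 and 0.121 CPM in primary-donor and primary-host cells, so nearly all of it was in the iBC-treated trachea. The growth factor Areg had 187 and 2.25 CPM in iBC-donor and iBC-host cells. Filip1l, a filamin-binding protein, had 121 and 3.37 CPM, and the unplaced gene AC168977.1 was also among the 10.

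Ager and Sftpc, markers of alveolar type 1 and type 2 cells of the distal lung, completed the list. Ager had 97.8 and 0.321 CPM in iBC-donor and iBC-host cells. Sftpc had 87.0 CPM and 0 UMIs, at least 181-fold higher when 3 counts over the group are taken as the floor, and came from 9.27% of the iBC-donor cells. Ciliated cells of that library had an Sftpc UMI in 11.2% and its other cells held 247 CPM. The share in the chosen cells was thus below that of ciliated cells, which cannot serve as a measure of background for this gene. Ciliated cells had an Sftpc UMI in 49.4% of the primary-donor and 57.5% of the primary-host library, against 0.35% and 1.32% of the chosen cells. Whether the Sftpc RNA of the chosen iBC-donor cells was their own was not tested. In Muc5b-high cells alone Sftpc lay under 20 CPM, with 13.8 CPM in iBC-donor and 0 in iBC-host cells. All 8 distal-lung markers were detected in iBC-donor cells, with a summed level of 2348 CPM, against 2410 CPM in iBC-host cells, where Sftpc and Lamp3 were at 0; their part in these ratios was not tested.

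All 10 higher and all 10 lower genes also differed by at least 2-fold in the same direction among the cells of these libraries that were outside the secretory set. None of the 20 is thus shown to be particular to secretory cells.

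**Figure D3:**
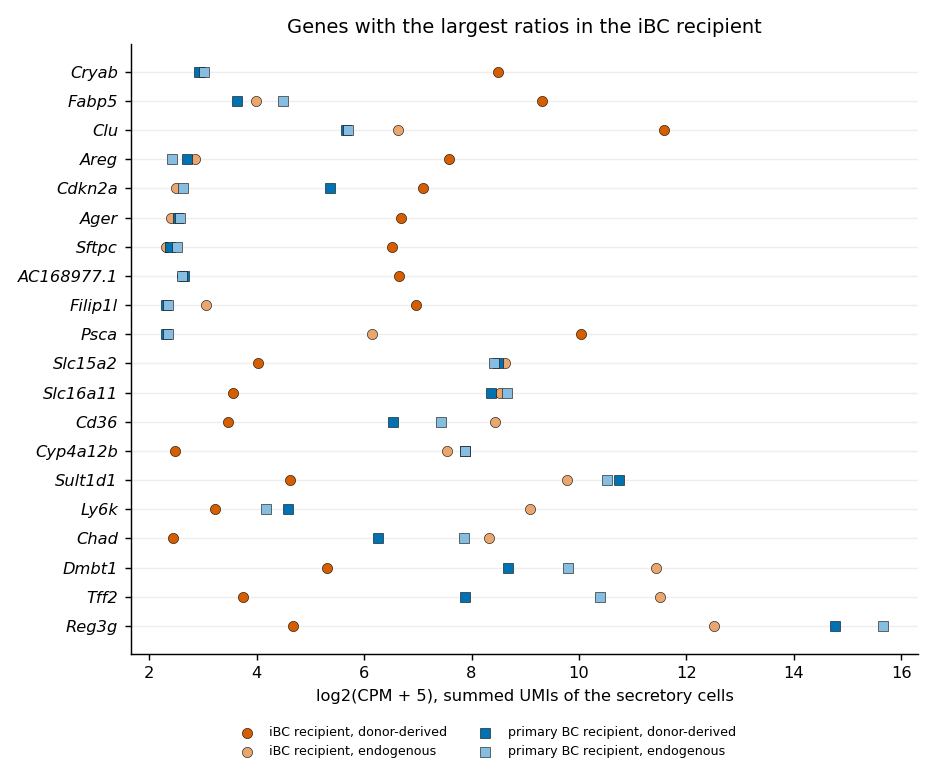
Level of the 20 named genes of the iBC recipient in the chosen cells of each library, as log2(CPM + 5) of summed UMIs, with the iBC recipient as circles and the primary BC recipient as squares, donor-derived dark and endogenous light. The 10 upper genes are high in iBC-donor cells, and the 10 lower genes are low there while the other 3 libraries lie to the right.

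The list counts of this pair stand beside 4.94% higher and 4.98% lower over all genes measured. Of 33 measured genes on a list of 38 club-cell and xenobiotic-metabolism genes, 1 was higher and 11 were lower past the fold in iBC-donor cells. Their median log2 ratio was -0.42 beside 0.10 over all genes. Cyp2f2 itself had 10448 and 9314 CPM in iBC-donor and iBC-host cells, a ratio of 1.12, and was not called. Cyp2a5, another P450 of airway and liver, had 172 and 4272 CPM, 24.8-fold lower (23.4 to 26.4), beside 4560 and 4984 CPM in primary-donor and primary-host cells. Fmo1, a flavin-containing monooxygenase, had 39.3 and 162 CPM. The single gene above was Cyp2b10, with 240 and 49.9 CPM, 4.80-fold higher (4.25 to 5.44). The lower genes thus came from several enzyme families while Cyp2f2 was within the fold; Cyp2a, Fmo and Sult genes can share reads with relatives.

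Goblet-cell genes leaned the same way. Of 24 measured genes of 34 on the goblet and mucin list, 2 were higher and 15 lower past the fold, with a median log2 ratio of -1.35. Muc5b had 1241 CPM in iBC-donor and 2965 CPM in iBC-host cells, 2.39-fold lower (2.33 to 2.45), while Muc5ac had 130 and 111 CPM and was not called. Agr2 had 207 and 1052 CPM, 5.09-fold lower (4.80 to 5.40). Spdef had 10.6 and 37.4 CPM, and Foxa3 had no UMI in iBC-donor and 27.1 CPM in iBC-host cells. Clca1, a goblet-cell secreted protease, had 4.10 and 136 CPM, and the lectin Itln1 had 1.82 and 58.4 CPM. The 2 higher genes were Tspan8, a membrane tetraspanin with 386 and 116 CPM, and Agr3, a relative of Agr2, with 40.4 and 3.05 CPM. The 2 gel-forming mucins were thus unequal, with only Muc5b past the fold.

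Serous and gland genes were lower for 9 of the 10 measured members of a 20-gene list, the exception being the water channel Aqp5 with 1683 and 657 CPM (2.56-fold higher, 2.47 to 2.66). Lyz2 had 656 CPM in iBC-donor and 10724 CPM in iBC-host cells, 16.3-fold lower (15.9 to 16.9), and Ltf had 4134 and 9753 CPM, 2.36-fold lower (2.33 to 2.39). Of 15 measured antimicrobial genes 10 were lower and none higher. They included the siderophore-binding protein Lcn2, with 440 and 1602 CPM, and complement C3, with 183 and 694 CPM. Wfdc2, a secreted protease inhibitor on this list, had 11094 and 9629 CPM and was not called. Ltf, Lyz1, Lyz2 and Bpifb1 stand on both the gland and the antimicrobial list, and Tff2 and Gp2 on both the gland and the goblet list, so these counts are not separate. Aqp5 is counted again among the ion and fluid genes below. Spdef and Foxa3, given with the goblet genes, are counted again among the transcription factors. The endoplasmic reticulum and secretion list had 2 lower genes, Kdelr3 and Copz2, of 31 measured, a share near the 4.98% over all genes. Its median was -0.22 and became 0.07 under CPM of all UMIs.

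Transcription factors were past the fold in both directions, with 6 higher and 10 lower of 46 measured and a median of -0.07 (0.17 under CPM of all UMIs). The lower genes held the Iroquois factors. Irx1 had 0.456 and 29.2 CPM, Irx2 had 6.53 and 74.2 CPM, and Irx3 and Irx5 were also lower. Tbx1 had 1.06 and 38.5 CPM, and the Notch target Hey1 had 1.22 and 38.1 CPM. Klf4, Creb3l1, Spdef and Foxa3 complete the 10. For Irx1, Irx2, Tbx1 and Hey1 iBC-donor cells lay far below the other 3 libraries, which held 27.5 to 76.4 CPM of each.

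The higher transcription factors were Foxq1, Gata6, Ahr, Foxa2, Id1 and Id3. Foxq1, a forkhead factor, had 424 and 76.3 CPM in iBC-donor and iBC-host cells, 5.55-fold higher (5.04 to 6.13), and 50.6 and 24.5 CPM in primary-donor and primary-host cells. Gata6, an endoderm factor of the distal lung, had 99.3 and 27.5 CPM, and Foxa2 had 26.4 and 4.82 CPM. The aryl hydrocarbon receptor Ahr had 333 and 163 CPM. Nkx2-1, the lung lineage factor, had 62.9 and 88.0 CPM and was not called, as was the case for Foxa1, Sox2 and Hes1.

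Antigen-presentation genes were higher as a group. All 6 measured genes of the MHC class II list were higher past the fold, with a median log2 ratio of 2.43. Cd74, the invariant chain of MHC class II, had 2796 CPM in iBC-donor and 379 CPM in iBC-host cells, and 8.67 and 32.7 CPM in primary-donor and primary-host cells. It had a UMI in 93.1% of iBC-donor and 46.9% of iBC-host cells, against 88.4% and 29.1% of ciliated cells, and the other cells of these libraries held 2254 and 640 CPM. H2-Eb1 had 656 and 42.1 CPM, and 0.703 and 4.24 CPM. Immune markers were near 0 in the chosen cells, and the class II genes can share reads within the H2 family.

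Of 15 measured ion and fluid genes 2 were higher and 3 lower. Ano1, a calcium-activated chloride channel, had 7.59 and 144 CPM, 18.97-fold lower (14.3 to 25.8), beside 155 and 154 CPM in primary-donor and primary-host cells. Scnn1b, a subunit of the epithelial sodium channel, had 8.05 and 31.5 CPM. Aqp3 was the third lower gene. The higher genes were Aqp5 and the carbonic anhydrase Car2, with 31.4 and 1.12 CPM. Among 15 measured immediate-early genes, which respond within minutes to handling, Egr1 (99.3 and 28.4 CPM) and Nr4a1 (32.8 and 6.10 CPM) were higher and none was lower.

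**Figure D4:**
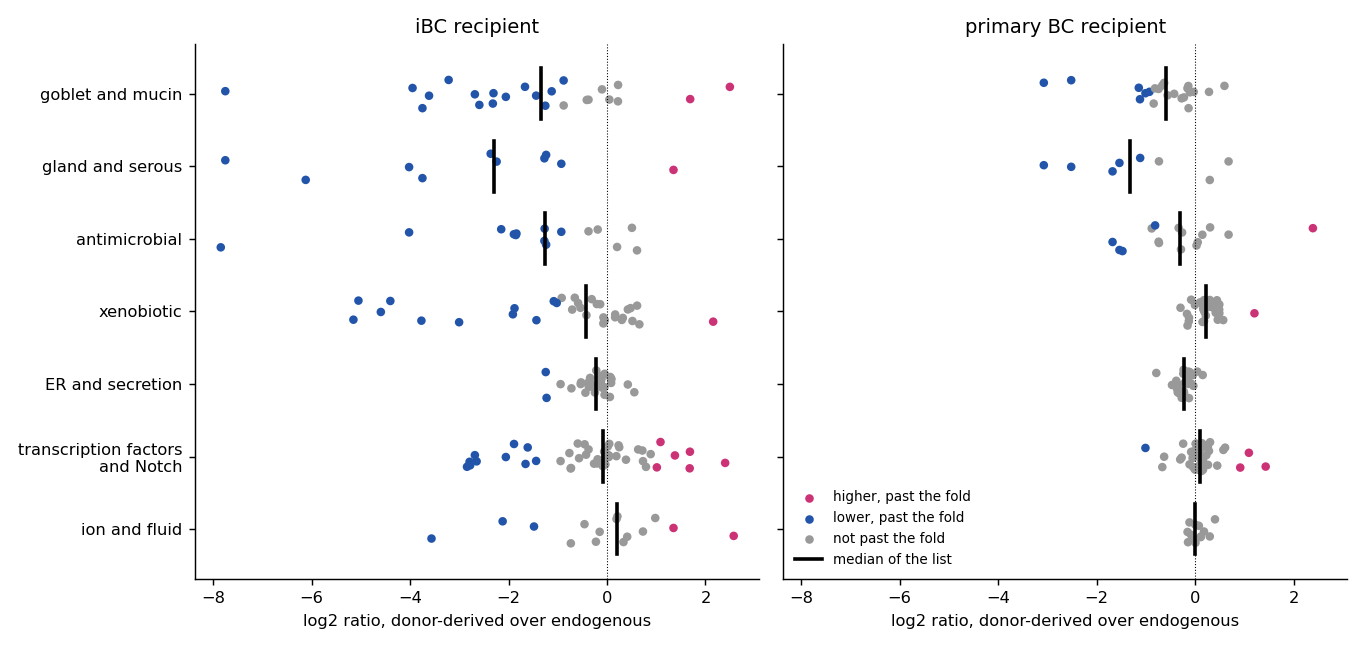
Log2 ratio of donor-derived over endogenous cells for each measured gene of 7 lists, in the iBC recipient (left) and the primary BC recipient (right), each dot a gene and each bar the list median. Goblet, gland and antimicrobial genes lie mostly left of 0 in the iBC recipient, and a smaller leftward shift of the goblet and gland lists shows in the primary BC recipient.

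The primary-donor and primary-host cells differed in fewer genes. Of 6057 genes measured, 20 were higher past the fold in primary-donor cells (0.33%) and 45 lower (0.743%), 1.07% in either direction, with a median log2 ratio over all genes of 0.05. Among the 10 genes furthest below were Gp2, Tff2, Bpifb1 and Muc5b. Gp2 (chromosome 7), a surface glycoprotein that binds bacterial fimbriae, had 14.3 CPM in primary-donor and 157 CPM in primary-host cells, 11.0-fold lower (9.14 to 13.4), and had a UMI in 4.04% and 24.4% of cells. Tff2 had 230 and 1338 CPM, 5.83-fold lower (5.55 to 6.12). Bpifb1 had 1071 and 3117 CPM, 2.91-fold lower (2.84 to 2.98), and Muc5b had 1878 and 4156 CPM, 2.21-fold lower (2.17 to 2.26). The secreted glycoprotein Lrg1 (14.7 and 73.6 CPM), the tight-junction protein Cldn10 (21.1 and 78.2 CPM), the chitinase-like Chil1 (40.1 and 120 CPM), Chad (71.2 and 226 CPM), the amino acid transporter Slc38a1 and cyclin O (Ccno) complete the 10.

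Fewer Muc5b-high cells stood beside several of these ratios. Muc5b-high cells, those with at least 10 Muc5b UMIs per 10,000, made up 174 of 569 primary-donor (30.6%, 26.8 to 34.6%) and 228 of 455 primary-host cells (50.1%, 45.4 to 54.8%). Among Muc5b-high cells alone Bpifb1 had 2846 and 5580 CPM (log2 ratio -0.97) and Chad 171 and 331 CPM (-0.93), both not past the fold. Gp2 (43.5 and 283 CPM), Tff2 (667 and 2423 CPM) and Lrg1 (41.4 and 132 CPM) remained past it. Among Muc5b-low cells alone Bpifb1 (log2 ratio -0.09) was not past it, and Gp2, Lrg1 and Chil1 lay under 20 CPM in both libraries. Among Scgb1a1-high cells alone, a choice made after the values were seen, Muc5b (-0.86) and Ccno (-0.51) were not past the fold.

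Only 7 higher genes met the limits for naming. Chil4, a secreted chitinase-like protein, had 505 CPM in primary-donor and 92.1 CPM in primary-host cells, 5.48-fold higher (5.07 to 5.93), but its UMIs came from 5.98% and 4.62% of cells. The chloride-channel family member Clic3 had 65.3 and 21.2 CPM (3.08-fold higher, 2.59 to 3.67), and Fmo1 had 76.1 and 30.2 CPM (2.52-fold higher, 2.18 to 2.93). The surface protein Ly6d had 190 and 82.5 CPM, and Id1, a repressor of helix-loop-helix factors, had 179 and 81.4 CPM. The secreted protein Lgi2 (85.5 and 40.0 CPM) and Foxq1 (50.6 and 24.5 CPM) were the smallest, and with each cell weighted equally they were not past the fold (log2 ratios of 0.90 and 0.85). Among Muc5b-low cells alone Ly6d (0.90), Id1 (0.78) and Lgi2 (0.55) were not past it. Basal markers were the higher in primary-donor cells, with a summed level of 5452 CPM against 3844 CPM in primary-host cells and all 9 detected in both; their part in these ratios was not tested.

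For the same pair the lists gave 6 lower and 0 higher of 22 measured goblet genes (median log2 ratio -0.59) and 5 lower and 0 higher of 8 gland genes (median -1.33), beside 0.05 over all genes. Over all genes measured 0.33% were higher and 0.743% lower. Muc5ac had 59.3 CPM in primary-donor and 135 CPM in primary-host cells, 2.27-fold lower (2.04 to 2.53), while Agr2, with 1494 and 2681 CPM, was within the fold. Lyz2 (8740 and 14545 CPM) and Reg3g (27909 and 51435 CPM) were also within it. Of 16 measured antimicrobial genes Bpifb1, Chil1, Lyz1 and Cfb were lower and Chil4 was higher, with a list median of -0.31. Ltf was the higher in primary-donor cells, with 12127 and 7569 CPM, and within the fold. Of 32 club-cell and xenobiotic genes 1 was higher (Fmo1) and none lower. Of 43 transcription factors Foxq1, Id1 and Id3 were higher and Foxa3 lower, and of 31 secretion genes none was past the fold.

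Outside the chosen cells, 6 of the 10 lower and 2 of the 7 higher genes also differed by at least 2-fold in the same direction. For the named genes of this pair the contrast outside the chosen cells was thus not of the same size throughout. No test of that difference could be made.

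Of 6615 genes measured in the 2 donor libraries, 509 were higher in iBC-donor cells (7.69%) and 405 lower (6.12%), 13.8% in either direction, with a median log2 ratio of 0.12. The split was 362 higher and 415 lower under CPM of all UMIs, with a median of -0.01, and 379 and 395 with TMM scaling. Reg3g had 20.5 CPM in iBC-donor and 27909 CPM in primary-donor cells, 1361-fold lower (1150 to 1624). Chil4 had 0 UMIs and 505 CPM, at least 1108-fold lower with 3 counts over the group as the floor. Sult1d1 was 87.1-fold lower (73.2 to 104), Cyp4a12b 379-fold lower (148 to 1392), and Fmo6, with 2.58 and 209 CPM, 80.8-fold lower (50.3 to 139). Above stood Psca (1049 CPM against 0 UMIs, at least 2984-fold), Cd74 (2796 and 8.67 CPM) and H2-Eb1 (656 and 0.703 CPM). Ftl1-ps1 (1348 and 10.3 CPM) and BC018473 (399 and 0.117 CPM) followed. Ftl1-ps1 is a pseudogene copy of a ferritin gene whose reads can fall to its parent.

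Of 6276 genes measured in the 2 host libraries, 190 were higher in iBC-host cells (3.03%) and 136 lower (2.17%), 5.19% in either direction, with a median log2 ratio of 0.06. Under CPM of all UMIs the split was 74 higher and 235 lower, with a median of -0.26. Ftl1-ps1 (1592 and 10.3 CPM) and BC018473 (316 and 0.121 CPM) were the furthest above, in a pair of libraries that held no transplanted cells by their sort. Ly6k had 537 and 12.97 CPM, the surfactant protein Sftpb 227 and 5.45 CPM, and the heat-shock gene Hspa1a 373.5 and 18.4 CPM. Lower were Chil4 (1 UMI, against 92.1 CPM), the steroid enzyme Akr1c18 (1.61 and 54.1 CPM), Ramp1, a receptor partner of the calcitonin gene-related peptide system (5.46 and 108 CPM), Rpl29 (47.7 and 657 CPM) and Reg3g (5857 and 51435 CPM). Rpl29 has pseudogene copies that can share its reads.

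The same libraries can be set side by side for a few secreted products, though each pair shares a library with another. Haptoglobin (Hp), which binds free haemoglobin, had 2440 and 1598 CPM in iBC-donor and iBC-host cells, and 196 and 189 CPM in primary-donor and primary-host cells. It was past the fold between donors (12.4-fold higher in iBC-donor cells, 11.8 to 13.1) and between hosts (8.46-fold higher in iBC-host cells, 8.02 to 8.93) and within neither trachea. The chloride cotransporter Slc12a2 was called in the same comparisons, with 585, 294, 50.05 and 56.2 CPM in the same 4 libraries. Its ratio of iBC-donor over iBC-host cells, however, lay just under the limit of 2. Gp2, Tff2, Dmbt1 and Bpifb1 were instead lower past the fold in the donor cells of both tracheas. Adh7, a retinol-oxidising alcohol dehydrogenase, had 305 and 484 CPM in iBC-donor and iBC-host cells, and 1698 and 1142 CPM in primary-donor and primary-host cells.

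Muc5b-high cells were compared with the Muc5b-low cells of their own library to describe the mucous state among secretory cells. Muc5b-high cells made up 195 of 518 iBC-donor (37.6%, 33.5 to 42.0%) and 313 of 618 iBC-host cells (50.6%, 46.6 to 54.7%), so in both tracheas the share was the lower in donor cells. With every cell thinned to 4000 UMIs the shares were 39.6, 53.0, 30.6 and 51.2% in the order of libraries, after 3 iBC-donor and 12 iBC-host cells were left out as too shallow. Ciliated cells had a Muc5b UMI in 3.59, 4.15, 9.38 and 21.5%. The limit falls in a continuous range: 44, 34, 10 and 10 cells lay between 8 and 10 per 10,000, and 36, 34, 13 and 6 between 10 and 12.

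Scgb3a1 was also higher in Muc5b-high cells of each library. Scgb1a1 was higher by its median in each, but its summed level in iBC-donor cells was 327918 CPM in Muc5b-high and 342776 CPM in Muc5b-low cells. Scgb1a1 medians in Muc5b-high and Muc5b-low cells were 2308 and 2155 per 10,000 in the iBC-donor library and 2145 and 1759 in the iBC-host library. They were 486 and 3.39 in the primary-donor library and 473 and 5.09 in the primary-host library. Scgb3a1 medians were 29.6 and 2.40, 1017 and 322, 178 and 0.979, and 460 and 3.56 in the 4 libraries. Muc5b-high cells were thus mostly from the Scgb1a1-rich range after primary BCs: 65.8% of Scgb1a1-high primary-donor cells were Muc5b-high, against 8.07% of Scgb1a1-low ones, and 83.3% against 20.1% of primary-host cells. Across cells the Pearson correlation of Muc5b with Scgb3a1, both as log values, was 0.59, 0.69, 0.83 and 0.83 over 518, 618, 569 and 455 cells; the cells of a library share its depth and free RNA.

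Of 5363 genes measured, 11 were at least 2-fold higher (0.205%) and 8 at least 2-fold lower (0.149%) in Muc5b-high cells of all 4 libraries. The 11 were Agr2, Bpifb1, Fut9, Gp2, Lrg1, Muc16, Muc5ac, Ppp1r1b, Slc37a1, St8sia6 and Tmc5. Bpifb1 had 2634 CPM in Muc5b-high and 1045 CPM in Muc5b-low iBC-donor cells, and 5807 and 2041 CPM in iBC-host cells. It had 2846 and 202 CPM in Muc5b-high and Muc5b-low primary-donor cells, and 5580 and 216 CPM in primary-host cells. The Muc5b-high cells of all 4 libraries lay between 2634 and 5807 CPM, and the ratios differed mainly through the Muc5b-low cells.

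Muc5ac behaved likewise, with 197 and 91.4 CPM in Muc5b-high and Muc5b-low iBC-donor cells, 199 and 22.2 CPM in iBC-host cells, 169 and 5.93 CPM in primary-donor cells, and 245 and 5.02 CPM in primary-host cells. Agr2 had 320 and 142 CPM, 1552 and 551 CPM, 3159 and 679 CPM, and 4376 and 684 CPM in the same order. Even in Muc5b-high cells Agr2 was therefore lowest in iBC-donor cells. Muc16, a membrane-tethered mucin, had 515 and 184 CPM, 818 and 310.0 CPM, 573 and 244 CPM, and 671 and 243 CPM, ratios of 2.35 to 2.81 that varied little between libraries. Fut9, which adds fucose to glycans, had 142 and 65.4 CPM, 149 and 23.1 CPM, 131 and 15.4 CPM, and 129 and 22.7 CPM. Gp2 had no UMI in Muc5b-low primary-donor cells, and 43.5 CPM in the Muc5b-high ones.

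The 8 lower genes were Aqp3, Dapl1, Dcn, Hpgd, Id1, Igfbp7, Krt5 and Phlda3, of which Krt5, Dapl1 and Aqp3 stand on the basal marker list. Krt5 had 8.76 CPM in Muc5b-high and 49.9 CPM in Muc5b-low iBC-donor cells, and 28.5 and 106 CPM in iBC-host cells. It had 21.8 and 466 CPM in Muc5b-high and Muc5b-low primary-donor cells, and 39.7 and 399.6 CPM in primary-host cells. Dapl1 had 4.17 and 32.9 CPM, 6.09 and 88.1 CPM, 13.6 and 421 CPM, and 22.6 and 419 CPM in the 4 libraries. Id1 had 109 and 223.5 CPM, 54.8 and 111 CPM, 93.2 and 221 CPM, and 42.6 and 127 CPM. Krt5, Dapl1 and Aqp3 thus had their largest ratios in primary-donor and primary-host cells. Of the other 6 basal markers 2 were measured in all 4 libraries and neither was called. Icam1 had 141 and 132 CPM in Muc5b-high and Muc5b-low iBC-donor cells and was lower in Muc5b-high cells of the other 3 libraries.

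Other genes of the ranking were lower in all 4 libraries without reaching 2-fold in each. Gstm1, a glutathione transferase, had 709 and 1077 CPM, 803 and 1378 CPM, 678.5 and 1826 CPM, and 595 and 1593 CPM in Muc5b-high and Muc5b-low cells of the 4 libraries. Sfn, Timp3, Mif, Gstm2, Prdx6, Rpl22l1, Tsc22d3 and Rps19 were the others. Above, Fcgbp, Basp1, Sftpa1, Muc4 and Qsox1 were higher in all 4 without reaching 2-fold in each. Fcgbp, a mucus-bound protein, had 239 and 106 CPM in Muc5b-high and Muc5b-low iBC-donor cells and 218 and 114 CPM in iBC-host cells. Cyp2f2 had 10470 and 10435 CPM, 8639 and 9990 CPM, 9709 and 11349 CPM, and 7774 and 10706 CPM, within 2-fold in each library. It was level in iBC-donor cells and lower in Muc5b-high cells of the other libraries. Its Pearson correlation with Muc5b across cells, both as log values, was 0.095, -0.38, -0.43 and -0.49 in the 4 libraries. Gstm genes have relatives that can share reads.

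**Figure D5:**
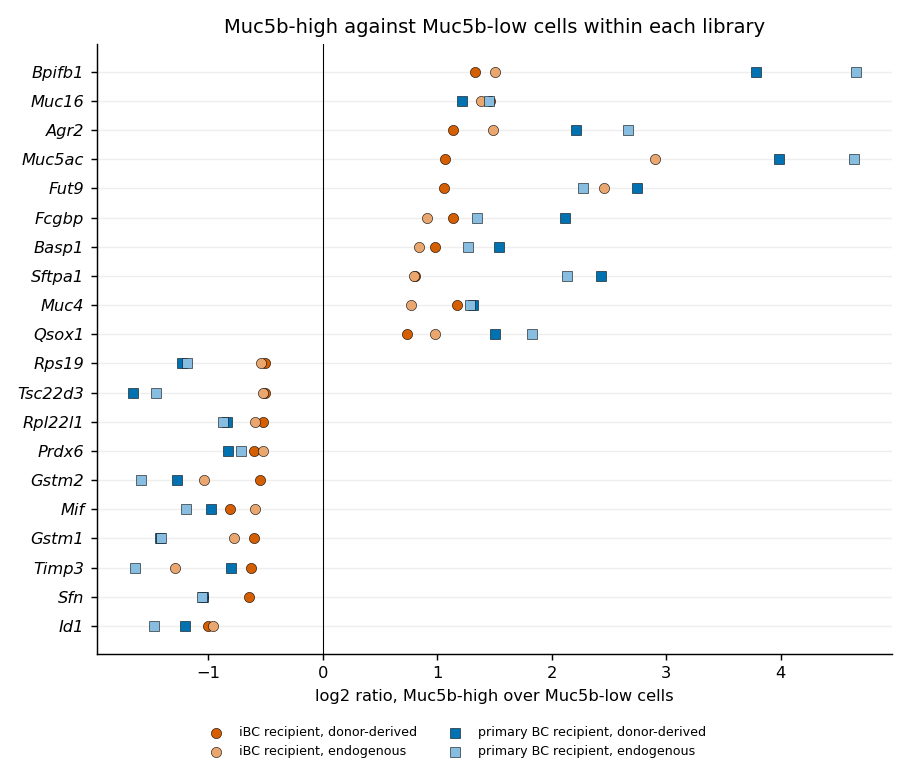
Log2 ratio of Muc5b-high over Muc5b-low cells within each library for the 20 named genes, with the iBC recipient as circles and the primary BC recipient as squares, donor-derived dark and endogenous light. Bpifb1 runs from 1.33 in iBC-donor cells to 4.66 in primary-host cells, while Muc16 lies between 1.22 and 1.46.

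By list, 4 of 13 measured goblet genes and 2 of 6 gland genes were 2-fold higher in Muc5b-high cells of all 4 libraries, and none was lower. The goblet medians were log2 1.07, 0.91, 1.32 and 1.35 in the 4 libraries, beside 0.03, 0.00, -0.16 and -0.15 over all genes. For antimicrobial genes the counts differed by trachea: 1 and 2 of 11 were 2-fold higher in iBC-donor and iBC-host cells, and 11 and 10 of 11 in primary-donor and primary-host cells, a difference that was not tested. No secretion gene of 29 and no club-cell gene of 28 reached 2-fold in all 4. The goblet median was thus near or above 2-fold in each library. The gland medians were log2 0.73, 1.06, 2.44 and 2.1, above the goblet ones in every library but iBC-donor. In single libraries 19, 32, 96 and 93 genes were 2-fold higher (0.354, 0.597, 1.79 and 1.73%) and 20, 45, 168 and 141 lower (0.373, 0.839, 3.13 and 2.63%).

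Some antimicrobial genes took opposite sides in their summed levels. The Lyz2 sum was 7.25-fold lower in Muc5b-high iBC-donor cells (132 CPM, against 956 CPM in Muc5b-low cells). It was higher in Muc5b-high cells of the other 3 libraries, at log2 0.61, 1.60 and 1.62. In iBC-donor cells, however, the Lyz2 median was 0 on both sides. It had a UMI in 21.0% of Muc5b-high and 29.4% of Muc5b-low cells, against 21.5% of ciliated cells. Its correlation with Muc5b across iBC-donor cells was -0.02. Ltf had log2 ratios of 0.85, -0.29, 1.59 and 0.72. Reg3g had 54245 CPM in Muc5b-high and 15030 CPM in Muc5b-low primary-donor cells, 78015 and 20127 CPM in primary-host cells, and 7431 and 4278 CPM in iBC-host cells. Notch1, the receptor gene, had 11.8 and 52.4 CPM in Muc5b-high and Muc5b-low primary-donor cells and 10.3 and 58.9 CPM in primary-host cells. Its values in iBC-donor cells were 80.5 and 74.96 CPM, and in iBC-host cells 34.6 and 44.1 CPM, both within 2-fold.

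Repeating the division among Scgb1a1-high cells alone left 6 of the 11 higher genes, namely Bpifb1, Fut9, Gp2, Muc5ac, Agr2 and Lrg1. It left 5 of the 8 lower ones, namely Phlda3, Dapl1, Igfbp7, Dcn and Hpgd, with Stmn1 added. Krt5 still lay below in all 4 libraries (log2 ratios of -1.90, -0.58, -2.35 and -2.18), and Ltf was within 2-fold in each (0.84, -0.24, 0.13 and -0.25). The ratios of Ltf in primary-donor and primary-host cells thus came down once Scgb1a1-low cells were left out. The 6 higher genes are past 2-fold because they were listed for it, and ratios of some came down too. In primary-donor cells Bpifb1 went from log2 3.78 to 2.56 and Agr2 from 2.21 to 1.67. Muc16, at 0.92 in Scgb1a1-high primary-donor cells, was no longer past 2-fold there. The iBC-donor library weighs most on the counts: without it, 37 genes were 2-fold higher and 38 lower in the other 3.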

How the data were processed

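Single-cell RNA libraries were made with 10x Chromium from GFP-positive and GFP-negative cells of 2 tracheas, 1 library for each of the 4 groups. The deposited values are UMI counts per gene and cell barcode, made by the authors and already reduced to cells. Cell Ranger, STARsolo, Seurat and the build GRCm38 are named in the submitters' processing notes without versions or roles, and whether counting used strand is not given in the sources used here. Genes that overlap, or whose reads fall on close relatives, may therefore be miscounted. The tables hold 30907 features, of which 127 share a symbol with another. Gene positions are from GENCODE vM21 and promoter letters from RefSeq, both on GRCm38.

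Cells were chosen by the rule given in the report, with no further filter. Chosen cells had a median mitochondrial share of 4.86, 5.07, 7.08 and 7.01% in iBC-donor, iBC-host, primary-donor and primary-host cells, and 3, 10, 32 and 26 of them were over 20%. Scrublet marked 0.689, 2.86, 0.533 and 0.985% of the barcodes of each library. UMIs were summed over the chosen cells and divided by the UMIs outside the 4 rule genes. Ratios are log2(CPM + 5), which understates changes of low genes, and folds are ratios of CPM with exact 95% intervals. Intervals and floors of 3 counts cover counting error only.

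Genes were named when past the fold, with at least 50 CPM and 50 UMIs in a sum, as the 10 furthest on each side, or 5 between donors and between hosts. Left out were rule genes, ciliated, hillock and immune markers, the reporter, predicted genes, and the sex-linked genes Xist, Ddx3y, Eif2s3y, Kdm5d and Uty. Genes over 4 times as high in the other cells of the library where they were higher were left out too. For Muc5b-high cells the 10 on each side were ranked by the library with the smallest ratio, among genes with at least 50 CPM in each library. Genes named outside these limits are list members or were chosen after their values were seen. The members, gene lists and markers were chosen with earlier results of these data known. The calculation was tested on simulated data. Python 3.11.15, scanpy 1.11.5, numpy 2.4.6, scipy 1.17.1, pandas 2.3.3 and matplotlib 3.10.9 were used, and edgeR 4.0.16 in R 4.3.3 for TMM scaling only. Alternatives covered scaling, pseudocount, the CPM minimum, doublets, mitochondrial share, the limits of the rule, the weight of cells and the Muc5b limit.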

Additional observations from a re-analysis of the deposited data

Results flagged for a closer look

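Fmo1 and Cd74 lay on opposite sides in the 2 tracheas. For Fmo1 the ratio of donor over host cells was 0.243 in the iBC recipient (39.3 CPM in iBC-donor and 162 CPM in iBC-host cells) and 2.521 in the primary BC recipient (76.1 CPM in primary-donor and 30.2 CPM in primary-host cells). For Cd74 the ratio was 7.386 in the iBC recipient (2796 CPM in iBC-donor and 379 CPM in iBC-host cells) and 0.2651 in the primary BC recipient (8.67 CPM in primary-donor and 32.7 CPM in primary-host cells). Outside the chosen cells Fmo1 held 9.56 CPM in the iBC-donor, 11.7 in the iBC-host, 7.63 in the primary-donor and 4.93 in the primary-host library, and Cd74 held 2254, 640, 49.8 and 1419 CPM. The difference between the tracheas was not tested, since each side is 1 library.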

How the results depend on the processing

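No paired analysis was possible because each group is 1 library and no result comes from a test. Counting error is the only error measured here: the spread between animals is unknown, and depth limits what can be said of genes near 20 CPM.

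Of the recomputed counts and shares 117 stayed within 1.5 times or within the counting interval, and 45 moved. For single genes and list medians 1407 values kept their call and size, 85 moved, 16 were no longer past the fold or fell under the CPM minimum, and 0 changed sign while called. In the iBC pair 175 genes were lower under CPM of all UMIs. With a minimum of 5 CPM the higher and lower counts were 510 and 669 in the iBC pair, 42 and 159 in the primary pair, 834 and 769 between donors, and 406 and 287 between hosts. With a minimum of 50 CPM they were 165 and 150, 9 and 19, 274 and 208, and 91 and 75. A lower minimum tests more genes and a higher one fewer. In the primary pair 36 genes were higher among Muc5b-high cells alone and 33 among Scgb1a1-high cells alone, the second choice made after the values were seen. Between hosts 74 were higher and 235 lower under CPM of all UMIs, and 121 were higher with TMM scaling. The cause of these differences was not tested.

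For Muc5b-high cells 32 genes were higher and 16 lower against cells under 2 per 10,000, and 39 and 21 for the top against the bottom of 4 equal groups of cells. Among Scgb1a1-high cells alone 6 were higher. Under CPM of all UMIs 4 were lower. With each library left out the higher count lay between 11 and 37 and the lower between 9 and 38. The Muc5b-high share at a limit of 5 was 58.5, 68.1, 35.3 and 57.1% in iBC-donor, iBC-host, primary-donor and primary-host cells, and at 20 it was 13.7, 31.7, 22.3 and 42.9%. With a rule sum of at least 1000 the chosen cells were 27.6, 29.4, 19.9 and 23% of the libraries in the same order, and with 250 they were 36.1, 39.1 and 39.4% of the iBC-host, primary-donor and primary-host libraries. Between hosts the list medians under CPM of all UMIs were negative for 7 of 9 lists, from -0.58 for secretion genes to -0.02 for antimicrobial genes. The median over all genes under that scaling was itself -0.26.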

Other observations

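Small amounts of other cell types' RNA lay in the chosen cells. Hillock-cell markers summed to 199 CPM in iBC-donor, 89.1 in iBC-host, 342 in primary-donor and 161 CPM in primary-host cells. Tuft-cell markers summed to 71.8, 13.2, 10.3 and 15.2 CPM in the same order, ionocyte markers to 11.4, 112, 126 and 123 CPM, and cycling-cell markers to 44.95, 9.31, 2.70 and 44.1 CPM. The tuft sum in iBC-donor cells rests on 1 of 5 markers at 20 CPM or more, with Trpm5 and Pou2f3 at 0, and the ionocyte sums of the other 3 libraries each rest on 1 of 5.

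Another 4 genes outside the lists, picked out after their values were seen, lay on opposite sides of the fold in the 2 tracheas. Ccl20, a chemokine of epithelial cells, had 213 CPM in iBC-donor and 72.9 CPM in iBC-host cells, and 8.79 and 20.1 CPM in primary-donor and primary-host cells. Iigp1, an interferon-inducible GTPase, had 171.5 and 67.9 CPM, and 7.74 and 28.0 CPM. Stmn1, a microtubule regulator of dividing cells, had 35.1 and 15.1 CPM, and 20.2 and 42.3 CPM. S100g, a calcium-binding protein, had 6.99 and 25.7 CPM, and 49.2 and 14.9 CPM. For Ccl20, Iigp1 and Stmn1 the donor cells were the higher after iBCs and the lower after primary BCs, and for S100g the reverse, each from 1 library a side and not tested.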
